A study of Homo sapiens with 9 samples.

Results

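The genes described here are 10 of the 19 human aldehyde dehydrogenases, out of 58051 genes counted in A431 cells. The members are ALDH2, ALDH1A1, ALDH1A3, ALDH1B1, ALDH3A1, ALDH3A2, ALDH3B1, ALDH7A1, ALDH9A1 and ALDH18A1. They were selected on the counts of ALDH2 in p53 KO cells, which were lost, and then listed by name, and the question was whether any other member offsets that loss. The loss of ALDH2 is therefore given as a description with no test. The A431 line was derived from an epidermoid carcinoma and carries its own mutant p53. RNA was measured in untreated A431 parental (mutp53) cells, in A431 Ctrl (mutp53) cells, which are a stable line made with an empty CRISPR vector and keep mutant p53, and in A431 p53 KO cells, a stable line made with CRISPR constructs against p53. All 3 groups carry the genome of the same tumour, were grown in the same medium, had been grown as single colonies, and were harvested 48 h after settling in the wells. Each group has 3 poly(A) RNA-Seq libraries, the labels do not say that these came from separate cultures, and p-values then measure only the spread between these libraries. A difference between stable lines cannot be told apart from a difference between colonies.

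Aldehyde dehydrogenases oxidise reactive aldehydes to acids with NAD+ or NADP+. Mitochondrial ALDH2 is best known for clearing acetaldehyde made from ethanol and aldehydes made by lipid peroxidation, and mitochondrial ALDH1B1 is its close relative in sequence and also takes acetaldehyde. The ALDH1A enzymes make retinoic acid from retinaldehyde, the ALDH3 enzymes take fatty and aromatic aldehydes, ALDH7A1 acts in lysine breakdown, ALDH9A1 in carnitine synthesis, and ALDH18A1 makes the precursor of proline from glutamate.

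Library totals over genes lay between 19783778 and 29840452 counts. Levels are given as CPM, a gene's counts divided by the TMM-normalized library size and scaled to a common total. Among markers of the cells, EGFR reached 8665 to 17320 CPM and KRT5 441 to 690 CPM, whereas KRT14, a keratin of basal keratinocytes, never passed 13 counts. The summed fibroblast markers lay at 3.92 to 4.42 CPM in parental, 2.78 to 3.82 CPM in Ctrl and 2.38 to 3.62 CPM in p53 KO libraries, with COL3A1, DCN and LUM at 0. The 5 leukocyte markers summed to 0.784 to 1.301 CPM in parental, 0.991 to 1.51 in Ctrl and 1.45 to 1.64 in p53 KO libraries. Most of this was CD68. CD14 held up to 9 counts and up to 0.342 CPM, both in p53 KO libraries, and PTPRC, CD3E and MS4A1 were at 0. The 3 endothelial markers summed to 0.383 to 0.646, 0.816 to 1.16 and 0.403 to 0.532 CPM in the same order, and all 4 hepatocyte markers were at 0. The part of these markers in the results was not tested. Ctrl replicate 1 stood apart from the other Ctrl libraries, with a chi-square per gene of 39.4 and 51.8 against them, where the other replicate pairs gave 5.35 to 16.4.

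ALDH2 (ENSG00000111275, chromosome 12, 111766887 to 111817532 on GRCh38, plus strand) had no count in any of the 3 p53 KO libraries. The parental libraries held 89, 88 and 110 counts, or 3.40, 3.39 and 5.07 CPM. The Ctrl libraries held 137, 172 and 139 counts, or 6.99, 6.04 and 5.30 CPM. The lowest control library thus stood well clear of the p53 KO libraries, although ALDH2 was a weakly expressed gene in all groups. Taking 3 counts per library as the limit that a count of 0 allows, the p53 KO level was at least 32.6-fold lower than the parental mean and at least 50.4-fold lower than the Ctrl mean. These limits cover counting error only. The genes annotated over ALDH2 also stood at 0 in every library. How reads shared between overlapping genes were counted is not given in the sources used here. The part of such reads in the ALDH2 counts was therefore not tested.

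ALDH2 was also higher in Ctrl than in parental cells, a comparison that did not enter its choice. The means were 6.11 ± 0.845 CPM in Ctrl and 3.95 ± 0.970 CPM in parental cells (SD, n = 3), and the groups did not overlap. The log2 fold change was 0.63 (SE 0.19, adjusted p = 0.0449 by edgeR's quasi-likelihood test over 14513 genes). This call rests on the settings, since the adjusted p ranged from 0.00210 to 0.159 over 14 alternatives and missed 0.05 in 8 of them. It was lost without parental replicate 1 (0.53, adjusted p = 0.159) or 2 (0.53, 0.147), p53 KO replicate 1 (0.63, 0.0539) or 2 (0.63, 0.0536), and Ctrl replicate 1 (0.54, 0.0614) or 2 (0.64, 0.0899).

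**Figure D1:**
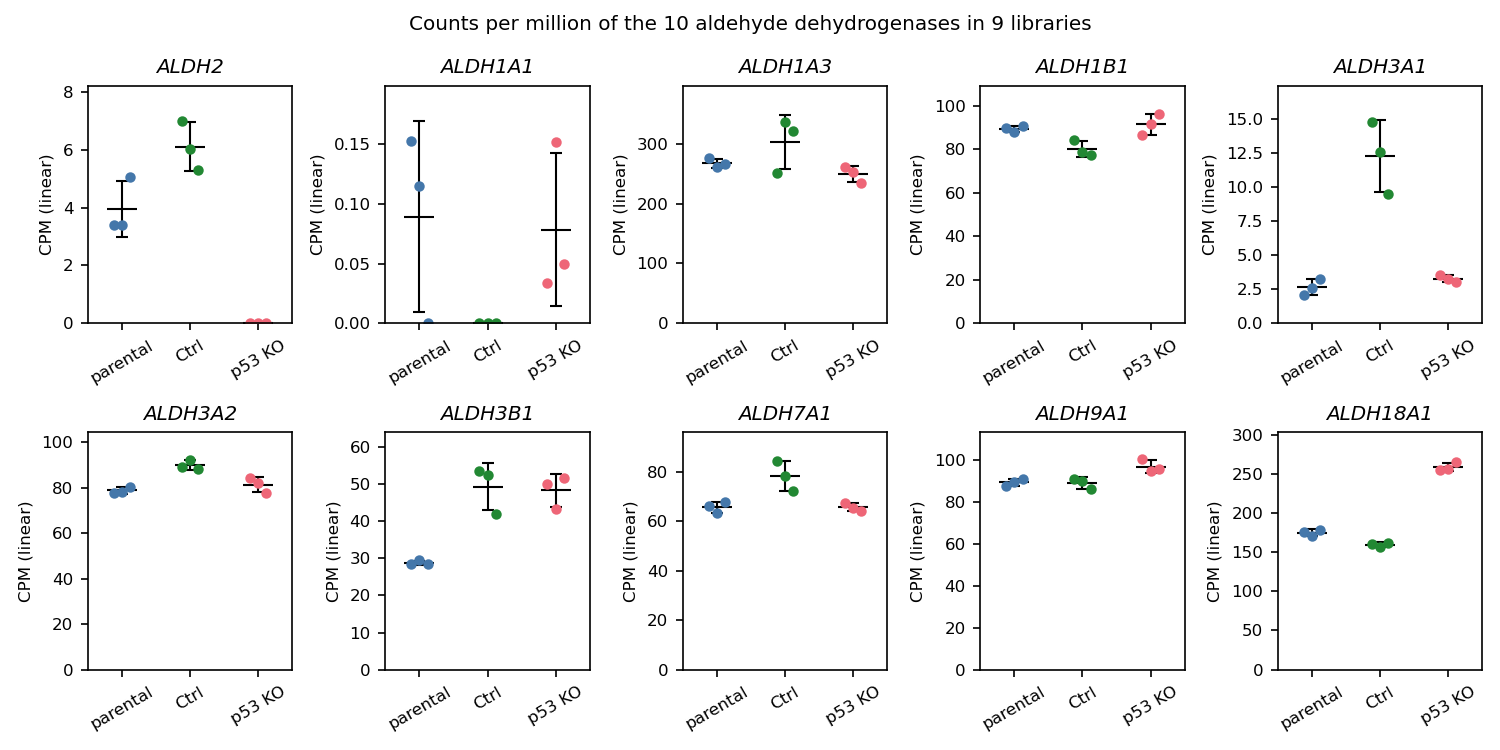
CPM of the 10 aldehyde dehydrogenases on linear axes from 0, with 1 point per library, a line at the group mean and bars of 1 SD (n = 3). ALDH2 lies at 0 in the 3 p53 KO libraries, ALDH18A1 lies at 255 to 265 CPM there and at 156 to 179 CPM in the 6 controls, and ALDH3B1 is low in parental libraries alone.

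Of the other 9 members, ALDH1A1 was too weakly expressed to be tested and 8 entered the fit across all genes. Against parental cells, ALDH18A1 and ALDH3B1 rose in p53 KO cells and no tested member fell, and no further member fell or rose at an unadjusted p under 0.05 or by DESeq2. That is 2 of 8 (25%) called at an adjusted p of at most 0.05, where 18.1% of all genes were called, 9.77% higher and 8.36% lower. Against Ctrl cells, ALDH18A1 rose while ALDH3A1 and ALDH7A1 fell, 3 of 8 (37.5%) where 29.2% of all genes were called. With a log2 fold change past 1.5 as well, 0 of the 8 were called against parental cells (1.95% of all genes) and ALDH3A1 alone against Ctrl cells (3.29%). The median of the 8 on the log2 scale was 0.08 in the parental comparison and -0.09 in the Ctrl comparison, beside 0.0065 and 0.0060 over all genes. ALDH18A1 was the only member called against each control in 1 direction in this fit and in its alternatives without a fold threshold, where 11.7% of all genes were. The comparisons share the p53 KO libraries and are set side by side for that reason. Without Ctrl replicate 1, the members called against Ctrl cells were 5, 2 higher and 3 lower, with ALDH1B1 and ALDH1A3 added, where 35.0% of all genes were called. The members called against parental cells were again 2 (25%) without it, where 33.5% of all genes were called.

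**Figure D2:**
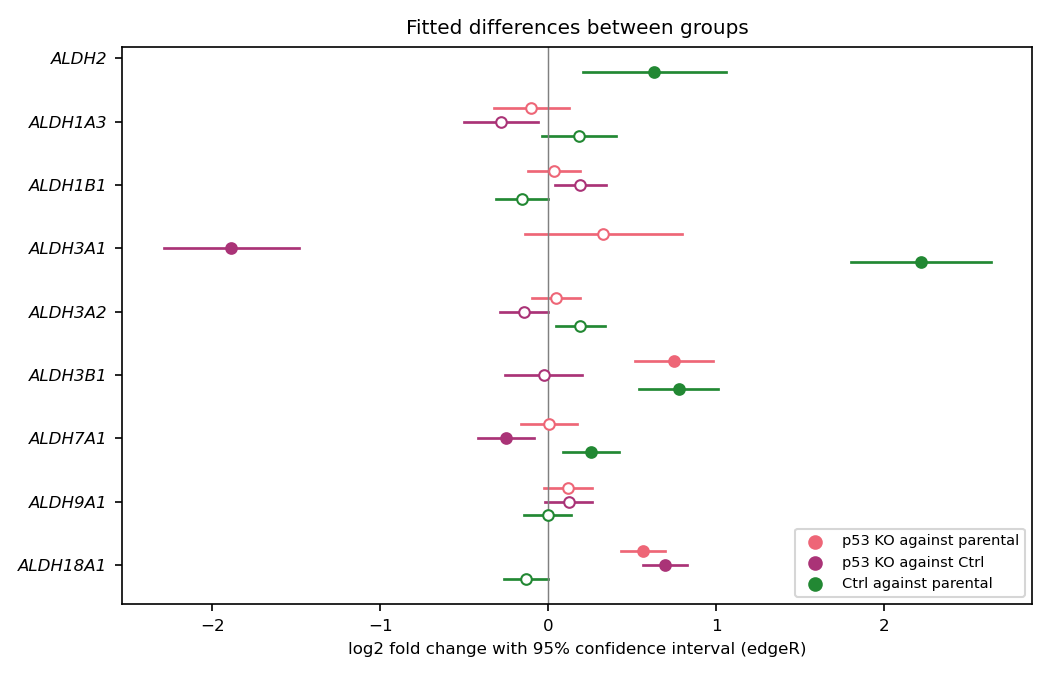
Fitted log2 fold changes (horizontal axis) with 95% confidence intervals for the 9 tested members in the 3 comparisons, with filled points for an adjusted p of at most 0.05 and open points otherwise. ALDH2 is drawn for Ctrl against parental alone, and ALDH18A1 is the only member with filled points against both controls.

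ALDH1B1 (ENSG00000137124, chromosome 9, 38392702 to 38398661), the member closest to ALDH2 in place and substrate, kept nearly its parental level. Its libraries held 89.9, 88.1 and 90.7 CPM in parental, 84.4, 78.7 and 77.6 CPM in Ctrl and 86.7, 91.7 and 96.5 CPM in p53 KO cells. The p53 KO libraries overlapped the parental ones and lay above all Ctrl libraries. Against parental cells the log2 fold change was 0.03 (95% interval -0.12 to 0.19, adjusted p = 0.783). Against Ctrl cells it was 0.19 (0.04 to 0.35, adjusted p = 0.0616), which passed the threshold in 2 of 15 alternatives, with DESeq2 and without Ctrl replicate 1.

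ALDH1A3 (ENSG00000184254, chromosome 15, 100877714 to 100916626), a maker of retinoic acid, was the most abundant member per length in both control groups. It held 275, 261 and 265 CPM in parental, 251, 336 and 322 CPM in Ctrl and 261, 252 and 234 CPM in p53 KO libraries. The spread was widest in Ctrl cells, where replicate 1 lay among the p53 KO libraries and the other Ctrl libraries lay above every other library. Against parental cells the log2 fold change was -0.10 (95% interval -0.32 to 0.12, adjusted p = 0.535), and against Ctrl cells -0.28 (-0.50 to -0.06, adjusted p = 0.0574). The latter was called without Ctrl replicate 1, at -0.40 (adjusted p = 0.000157), and with no filter on low counts. An antisense gene over its exons, RP11-66B24.4, held 27 to 55 counts, few beside the 4716 to 9559 counts of ALDH1A3. ALDH1A1, another cytosolic retinaldehyde enzyme (ENSG00000165092, chromosome 9, 72900671 to 73080442), held 4, 3 and 0 counts in parental, 0 in every Ctrl library and 1, 4 and 1 counts in p53 KO cells. These counts are near the limit of detection in every group and no fold was taken from them.

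Of the ALDH3 enzymes, ALDH3B1 and ALDH3A1 were called in p53 KO cells against 1 control each, and ALDH3A2 against neither. ALDH3B1 (ENSG00000006534, chromosome 11, 68008578 to 68029282), a membrane-bound enzyme for lipid aldehydes, held 28.4, 29.4 and 28.5 CPM in parental, 53.6, 52.3 and 41.9 CPM in Ctrl and 49.9, 43.4 and 51.7 CPM in p53 KO libraries. Parental libraries were the low ones, and the Ctrl and p53 KO libraries overlapped. It rose against parental cells by 0.75 (SE 0.106, adjusted p = 0.000754) in p53 KO cells and by 0.78 (SE 0.106, adjusted p = 0.000681) in Ctrl cells, on the log2 scale. Between p53 KO and Ctrl cells the log2 difference was -0.03 (95% interval -0.26 to 0.20, adjusted p = 0.873).

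ALDH3A1 (ENSG00000108602, chromosome 17, 19737984 to 19748943), known as an abundant protein of the cornea, was high in Ctrl cells. Its libraries held 2.10, 2.62 and 3.23 CPM in parental, 14.8, 12.6 and 9.53 CPM in Ctrl and 3.56, 3.27 and 3.03 CPM in p53 KO cells. The 3 Ctrl libraries stood above all 6 others, which overlapped. On the log2 scale, Ctrl cells exceeded parental cells by 2.22 (SE 0.189, adjusted p = 2.84e-05), and p53 KO cells lay below Ctrl cells by -1.89 (SE 0.183, adjusted p = 2.90e-05). Against parental cells the p53 KO value was 0.33 (95% interval -0.14 to 0.79, adjusted p = 0.316). ALDH3A2 (ENSG00000072210, chromosome 17, 19648136 to 19685760), the fatty aldehyde dehydrogenase lost in Sjögren-Larsson syndrome, held 77.7 to 80.5 CPM in parental, 88.4 to 92.3 CPM in Ctrl and 77.7 to 84.3 CPM in p53 KO libraries. Against parental cells the log2 value was 0.05 (adjusted p = 0.667), and against Ctrl cells -0.14 (adjusted p = 0.123).

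ALDH7A1 (ENSG00000164904, chromosome 5, 126531200 to 126595362) held 66.1, 63.2 and 67.6 CPM in parental, 84.6, 78.2 and 72.3 CPM in Ctrl and 67.6, 65.3 and 64.3 CPM in p53 KO libraries. Ctrl libraries lay above the others. In p53 KO cells it was lower than in Ctrl cells by a log2 fold change of -0.25 (SE 0.076, adjusted p = 0.0270), and its log2 difference from parental cells was 0.00 (95% interval -0.16 to 0.17, adjusted p = 0.987). The call against Ctrl cells was lost in 7 of 15 alternatives, with adjusted p from 0.0104 to 0.0950 over the 15. It was lost without any single p53 KO library (adjusted p = 0.0603, 0.0930 and 0.0744) and without Ctrl replicate 2 (adjusted p = 0.0655). A copy of the gene, ALDH7A1P1, held 5 to 12 counts, and how reads shared with it were counted was not tested, which leaves the ALDH7A1 counts uncertain to that extent. ALDH9A1 (ENSG00000143149, chromosome 1, 165662216 to 165698562) held 87.5, 89.5 and 90.7 CPM in parental, 91.0, 89.8 and 86.0 CPM in Ctrl and 100.2, 94.6 and 95.4 CPM in p53 KO libraries. All 3 p53 KO libraries lay above the 6 controls, but the difference did not pass the test, with log2 fold changes of 0.12 (95% interval -0.02 to 0.26, adjusted p = 0.239) against parental and 0.12 (-0.02 to 0.26, adjusted p = 0.182) against Ctrl cells.

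ALDH18A1 (ENSG00000059573, chromosome 10, 95605941 to 95656711), which makes proline precursor and does not clear acetaldehyde, was the member that rose against both controls. The parental libraries held 176, 170 and 179 CPM, the Ctrl libraries 161, 156 and 161 CPM, and the p53 KO libraries 255, 256 and 265 CPM. Every p53 KO library stood above every control library, and the spread within groups was small. On the log2 scale the rise was 0.57 (SE 0.059, adjusted p = 0.000125) against parental and 0.70 (SE 0.059, adjusted p = 1.12e-05) against Ctrl cells, or 1.48-fold and 1.62-fold by the mean CPM. Between Ctrl and parental cells it was -0.13 (95% interval -0.26 to 0.00, adjusted p = 0.129). Over 15 alternatives the log2 value ranged from 0.54 to 0.58 against parental and from 0.68 to 0.71 against Ctrl cells, and it did not reach the fold threshold of 1.5 on the log2 scale in any.

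To see the size of these differences beside the loss of ALDH2, levels were taken per length, as CPM per kb of exon. The exon lengths came from a later annotation than the one used for counting. The part of this mismatch in the levels per length given here and below was not tested. ALDH2 lost 0.407 ± 0.058 CPM per kb (SE of the difference) against parental and 0.628 ± 0.050 against Ctrl cells. ALDH18A1 gained 22.3 ± 1.06 and 26.4 ± 0.956 CPM per kb, ALDH9A1 differed by 2.498 ± 0.654 and 2.60 ± 0.766, and ALDH1B1 by 0.669 ± 0.941 and 3.65 ± 1.13. The differences of ALDH18A1 and ALDH9A1 are larger than the lost ALDH2 RNA against both controls, although that of ALDH9A1 did not pass the test, and the parental difference of ALDH1B1 is within its error. ALDH3B1 differed by 2.95 ± 0.388 against parental cells and by -0.143 ± 0.677 against Ctrl cells. Other members went down by more than ALDH2 did. ALDH1A3 differed by -3.36 ± 1.71 against parental and -10.1 ± 5.15 against Ctrl cells, and was called in neither. Against Ctrl cells ALDH3A1 differed by -2.32 ± 0.395 and ALDH7A1 by -0.706 ± 0.205, whereas against parental cells they differed by 0.164 ± 0.093 and 0.005 ± 0.091. ALDH2 was so weakly expressed that its loss is smaller than the SE of ALDH18A1, ALDH1A3, ALDH9A1 or ALDH1B1 alone. A comparison of sizes therefore cannot decide whether the loss is offset. RNA of another enzyme does not measure the activity lost with ALDH2, and enzyme activity was not analysed here.

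Summed over the 9 members other than ALDH2, the level was 168.8 ± 2.52 CPM per kb in parental cells, 175 ± 5.76 in Ctrl cells and 194 ± 1.39 in p53 KO cells (SD, n = 3), and the groups did not overlap between p53 KO and either control. The difference was 25.4 ± 1.66 CPM per kb (SE) against parental and 18.8 ± 3.42 against Ctrl cells, or 12.4 against Ctrl cells with the longest transcript as the length. Against parental cells most of it was ALDH18A1, and against Ctrl cells the gain of ALDH18A1 was larger than the summed difference. Without that gene, the summed level was 122 ± 1.46 CPM per kb in parental cells, 133 ± 6.41 in Ctrl cells and 125 ± 2.14 in p53 KO cells, differences of 3.09 ± 1.49 and -7.51 ± 3.90. ALDH2 itself was 0.240% of the summed level of the 10 members in parental and 0.358% in Ctrl cells.

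**Figure D3:**
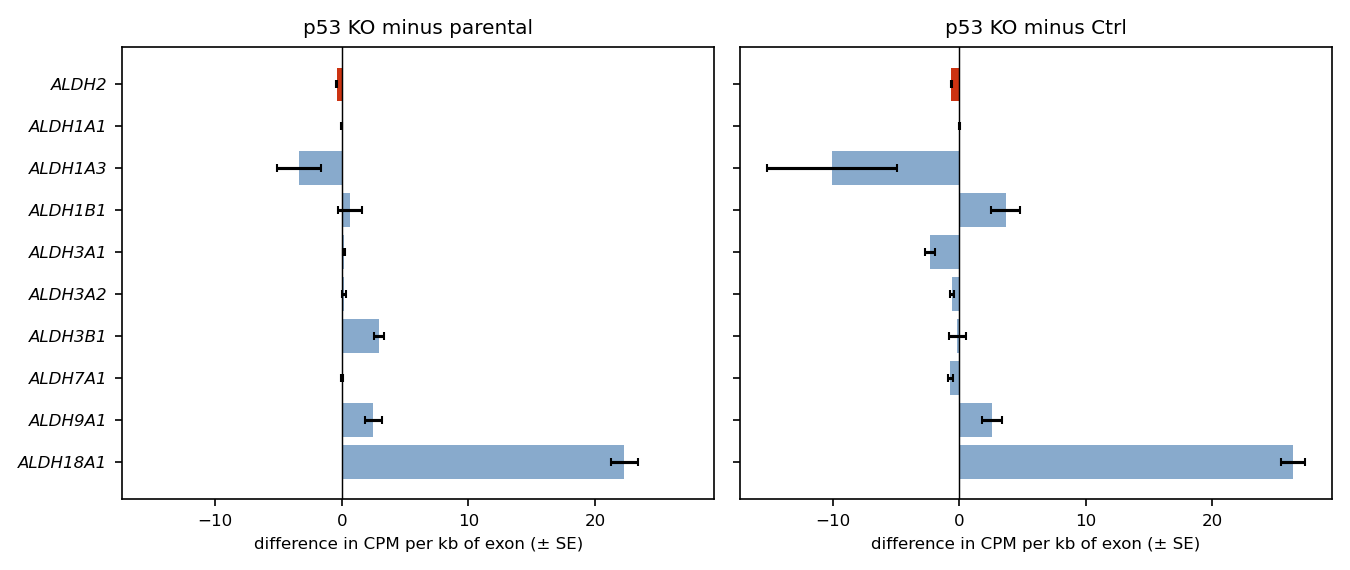
Difference in CPM per kb of exon (horizontal axis, bars from 0) between p53 KO and each control for the 10 members, with error bars of 1 SE of the difference (n = 3 per group) and ALDH2 in red. The ALDH2 bar, -0.407 and -0.628, is small beside the ALDH18A1 bar, 22.3 and 26.4.

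In parental cells the order per length was ALDH1A3 (50.0 CPM per kb), ALDH18A1 (46.5), ALDH9A1 (29.7), ALDH1B1 (28.7), ALDH3A2 (5.14), ALDH3B1 (4.35), ALDH7A1 (3.66), ALDH3A1 (0.683), ALDH2 (0.407) and ALDH1A1 (0.0315). ALDH9A1 and ALDH1B1 overlapped between libraries and cannot be ordered, and the other neighbours did not overlap. In p53 KO cells ALDH18A1, at 68.8 CPM per kb, stood above ALDH1A3, at 46.7 CPM per kb. In Ctrl cells ALDH1A3 was first at 56.7 CPM per kb. With the longest transcript as the length, ALDH7A1 moved above ALDH3B1 in all groups, and ALDH3A2 above ALDH3B1 in Ctrl and p53 KO cells, where the exon union put it below.

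The stretch just before the start of the 2 members that rose against parental cells is shown because they differ in base composition, from RefSeq on GRCh38.p14, where 8 of the 10 members were matched. Each is written 5′ to 3′ on the gene's strand, with CG pairs in capitals. The ALDH18A1 sequence is chr10:95656712-95656961 (minus strand) and the ALDH3B1 sequence is chr11:68008297-68008546 (plus strand), at 1 of 2 starts listed.
ALDH18A1: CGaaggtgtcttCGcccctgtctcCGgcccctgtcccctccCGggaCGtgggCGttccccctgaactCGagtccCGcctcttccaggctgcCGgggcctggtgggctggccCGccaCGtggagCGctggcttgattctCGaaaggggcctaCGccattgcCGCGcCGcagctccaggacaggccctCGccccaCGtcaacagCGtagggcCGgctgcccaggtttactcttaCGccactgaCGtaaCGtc
ALDH3B1: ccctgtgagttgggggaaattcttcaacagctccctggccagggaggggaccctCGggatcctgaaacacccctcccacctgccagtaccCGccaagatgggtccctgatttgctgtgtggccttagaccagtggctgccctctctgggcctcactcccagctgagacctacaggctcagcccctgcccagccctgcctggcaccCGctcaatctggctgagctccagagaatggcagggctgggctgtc
The ALDH18A1 stretch holds 24 CG pairs, above 76.3% of 35116 promoters, and the ALDH3B1 stretch holds 3, above 22.9% of them, where the median was 11. Neither holds the letters CCAAT on either strand, which 32.0% of all promoters hold. Neither holds GGGCGG, found in 42.6% of them, nor the letters TATAAA, found in 10.7%. A count of letters is a description of these windows and does not measure binding.

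Of 15 tested genes that start within 1 Mb of the start of ALDH2, 0 passed the test against each control in 1 direction by edgeR, 0 at an unadjusted p under 0.05 in each and 0 by DESeq2, where 11.7% of all genes did by edgeR. Their median was -0.02 on the log2 scale in the parental comparison and 0.04 in the Ctrl comparison. The 3 nearest on each side, ACAD10, BRAP, ATXN2-AS, MAPKAPK5-AS1, MAPKAPK5 and TMEM116, were not called in p53 KO cells. ACAD10 gave -0.05 (adjusted p = 0.697) and -0.21 (adjusted p = 0.0598). The genes near ALDH18A1 rose with it. Of 9 tested genes within 1 Mb, 6 were called higher against both controls, where 6.46% of all genes were, and their median on the log2 scale was 0.53 in the parental comparison and 0.85 in the Ctrl comparison. This window was examined after the values were seen. TCTN3, the nearest, rose by 0.50 (SE 0.073, adjusted p = 0.000908) and 0.44 (SE 0.073, adjusted p = 0.000919), PDLIM1 by 0.81 (SE 0.090, adjusted p = 0.000195) and 0.66 (SE 0.090, adjusted p = 0.000271), and CCNJ by 0.53 (SE 0.118, adjusted p = 0.0104) and 0.85 (SE 0.120, adjusted p = 0.000341). The part of this shared shift in the rise of ALDH18A1 was not tested, and DNA copy number was not analysed here. Around ALDH3B1, 13 of 34 tested genes were higher in Ctrl than in parental cells (10.6% of all genes), with a median log2 fold change of 0.29. In p53 KO against parental cells 5 of the 34 were higher (9.77% of all genes) and 0 lower, with a median of 0.15. Against Ctrl cells 0 were higher and 5 lower (14.2% of all genes), with a median of -0.18. This window was not planned either.

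**Figure D4:**
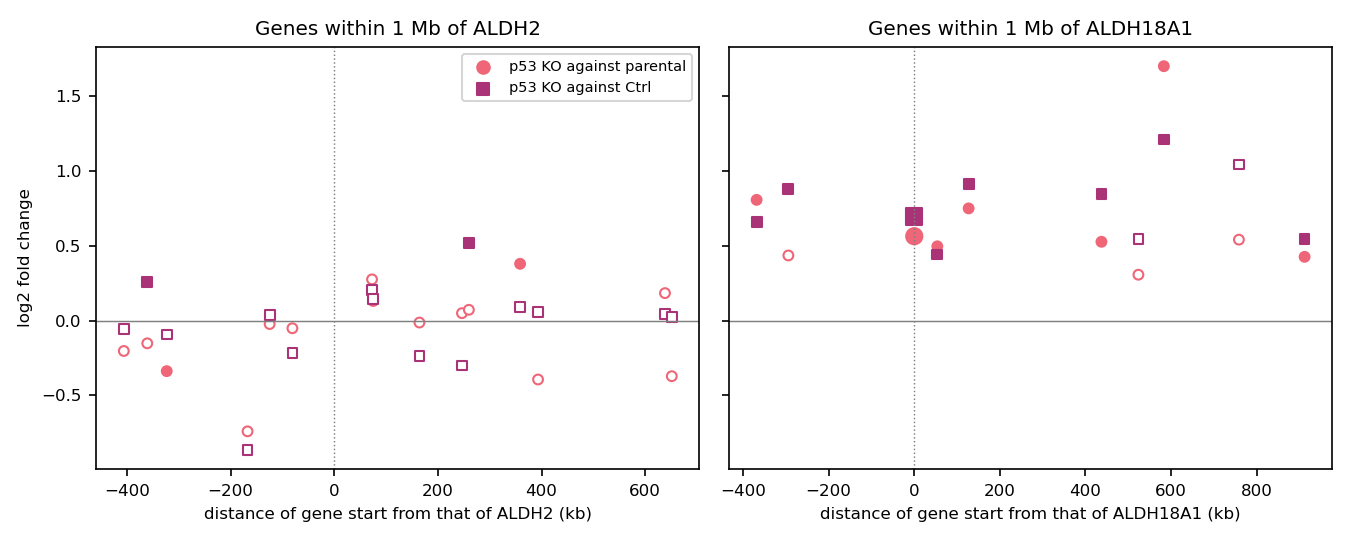
Log2 fold changes (vertical axis) of tested genes within 1 Mb of ALDH2 and of ALDH18A1 against the distance between gene starts in kb, with filled points for an adjusted p of at most 0.05. Genes around ALDH2 lie on both sides of 0 and ALDH2 itself is not drawn, whereas those around ALDH18A1 all lie above 0.

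Genes whose level followed ALDH2 most closely over the 9 libraries were NUDT16P1 (r = 0.997), PLOD2 (r = 0.997), TFDP2 (r = 0.994), CAMKK2 (r = 0.993) and GALNT6 (r = 0.992), by Pearson's r of log2 CPM. The libraries fall into 3 groups, so this r describes the group means and carries no test. NUDT16P1, a pseudogene, and PLOD2, a lysyl hydroxylase of collagen, were at 0 counts in all 3 p53 KO libraries like ALDH2, whereas CAMKK2 held 69.3 to 69.7 CPM there beside 78.9 to 81.9 CPM in the controls. NUDT16P1, PLOD2 and TFDP2 lie on chromosome 3, and CAMKK2 and GALNT6 on chromosome 12.

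Outside the listed members, 7 of the 9 other family genes were tested, and ALDH1A2 and ALDH8A1 never passed 5 counts. Against parental cells 1 rose and 1 fell, and against Ctrl cells 1 rose and 1 fell, 28.6% in each, where 18.1% and 29.2% of all genes were called. ALDH1L2, the mitochondrial formyl-tetrahydrofolate dehydrogenase, fell against both. Its libraries held 7.27, 6.96 and 6.97 CPM in parental, 3.21, 4.99 and 5.53 CPM in Ctrl and 1.48, 1.41 and 1.19 CPM in p53 KO cells. The groups did not overlap, and ALDH1L2 changed on the log2 scale by -2.36 (SE 0.196, adjusted p = 2.50e-05) against parental and -1.75 (SE 0.203, adjusted p = 9.47e-05) against Ctrl cells. ALDH1L1, its cytosolic counterpart, was instead low in Ctrl cells, at 2.32 to 3.16 CPM, beside 6.73 to 7.98 CPM in parental and 7.19 to 7.72 CPM in p53 KO cells. The p53 KO cells exceeded Ctrl cells by 1.55 on the log2 scale (SE 0.140, adjusted p = 1.78e-05), with -0.01 (95% interval -0.28 to 0.27, adjusted p = 0.978) against parental cells. ALDH3B2, beside ALDH3B1 on chromosome 11, held 9 to 15 counts in parental libraries, 30 to 48 in Ctrl and 26 to 42 in p53 KO libraries. Like ALDH3B1 it was higher than in parental cells in p53 KO (1.51, SE 0.228, adjusted p = 0.00108) and in Ctrl cells (1.77, SE 0.222, adjusted p = 0.000375). ALDH16A1 was called between Ctrl and parental cells alone, at 0.38 (SE 0.112, adjusted p = 0.0381), and that call was lost in 8 of 15 alternatives, among them without any single parental library, without p53 KO replicate 1, without Ctrl replicate 1 (0.27) and without Ctrl replicate 2, with adjusted p from 0.00937 to 0.125 over the 15.

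**Figure D5:**
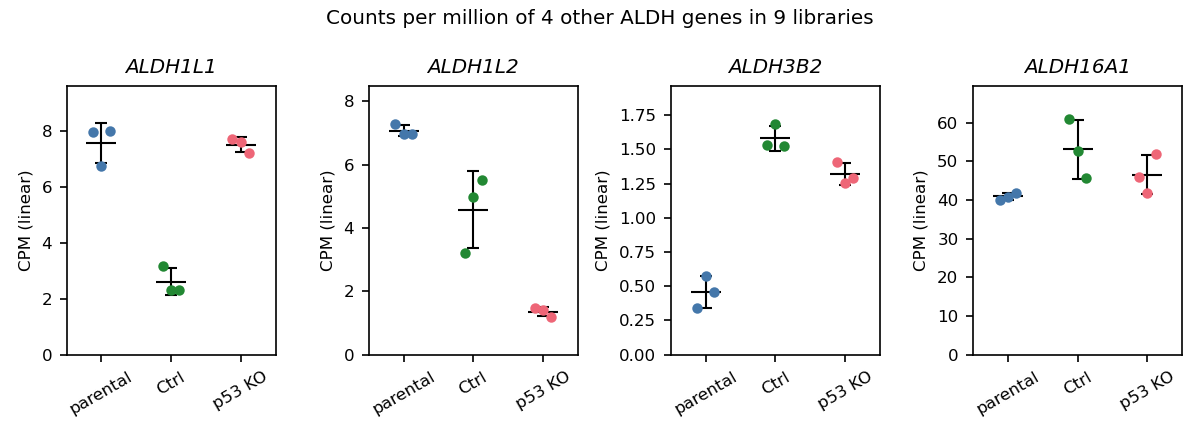
CPM of ALDH1L1, ALDH1L2, ALDH3B2 and ALDH16A1 on linear axes from 0, with 1 point per library, a line at the group mean and bars of 1 SD (n = 3). ALDH1L2 is lowest in p53 KO libraries at 1.19 to 1.48 CPM, and ALDH1L1 is lowest in Ctrl libraries.

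Other enzymes that could handle the same aldehydes did not, as a list, move in the same direction against both controls. Among 18 aldo-keto and carbonyl reductases and other aldehyde-removing enzymes, 15 were tested. Against parental cells 4 rose and 2 fell, and against Ctrl cells 1 rose and 5 fell, with medians of 0.15 and -0.19 on the log2 scale. That is 40% in each, where 18.1% and 29.2% of all genes were called. Called against both were AOX1, an oxidase of aldehydes, higher by 0.60 (SE 0.166, adjusted p = 0.0288) and 1.92 (SE 0.190, adjusted p = 3.43e-05), AKR1B1, aldose reductase, lower by -0.56 (SE 0.105, adjusted p = 0.00363) and -0.91 (SE 0.105, adjusted p = 9.10e-05), and PTGR1, which reduces lipid aldehydes, lower by -0.42 (SE 0.120, adjusted p = 0.0325) and -0.64 (SE 0.119, adjusted p = 0.00205). AOX1 held 73 to 86 counts in parental, 16 to 45 in Ctrl and 87 to 155 in p53 KO libraries. In the same list 9 genes rose and 1 fell in Ctrl against parental cells, with a median of 0.35, where 20.3% of all genes were called. Of 9 genes of ethanol oxidation, ADH5 and CAT alone were tested. Neither was called in p53 KO cells by edgeR or DESeq2, and at an unadjusted p under 0.05 the number was 0 against parental and 1 against Ctrl cells.

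The pathways around the members that moved were described in the same way. Of 16 proline, lysine and carnitine genes, 9 were tested, 2 rose and 0 fell against parental cells (1 fell at an unadjusted p under 0.05, and 0 by DESeq2), and 3 rose and 2 fell against Ctrl cells. These are 22.2% and 55.6%, beside 18.1% and 29.2% of all genes. OAT, which joins ornithine to the same proline precursor as ALDH18A1 and also lies on chromosome 10, was the gene called against both, by 0.49 (SE 0.071, adjusted p = 0.000843) and 0.68 (SE 0.071, adjusted p = 4.59e-05). Of 22 retinoid genes, 16 were tested, with 3 higher and 0 lower against parental and 3 higher and 4 lower against Ctrl cells. These are 18.8% and 43.8%, beside the same 18.1% and 29.2%. Against parental cells 5 were higher and 0 lower at an unadjusted p under 0.05, and 3 higher and 0 lower by DESeq2. RDH16, a retinol dehydrogenase, was higher against both, with 0 to 3 counts in parental, 3 to 9 in Ctrl and 13 to 27 in p53 KO libraries. Of 8 folate genes, 7 were tested. MTHFD1L, a mitochondrial formyl-tetrahydrofolate synthetase, rose by 0.38 (SE 0.070, adjusted p = 0.00342) and 0.54 (SE 0.070, adjusted p = 0.000191). No other of these genes was called in p53 KO cells. The share called was thus 14.3% in each comparison, below the 18.1% and 29.2% of all genes.

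Between the groups that both keep mutant p53, 4 of the 9 tested members were called higher in Ctrl than in parental cells, ALDH2, ALDH3A1, ALDH3B1 and ALDH7A1, and none lower by edgeR or DESeq2 (44.4%, where 20.3% of all genes were called, 10.6% higher and 9.69% lower). With a log2 fold change past 1.5 as well it was ALDH3A1 alone (1.94% of all genes). At an unadjusted p under 0.05, 2 members were lower, ALDH1B1 at -0.16 and ALDH18A1 at -0.13. ALDH7A1 differed by 0.26 (SE 0.076, adjusted p = 0.0371), a call that was lost in 9 of 15 alternatives, among them without any single parental library, without p53 KO replicate 1 or 2 and without Ctrl replicate 2, with adjusted p from 0.0149 to 0.140 over the 15. The calls of ALDH3A1 and ALDH3B1 were kept in all 15. The number of members called was 2 without parental replicate 1 or 2, without p53 KO replicate 1 or 2 or without Ctrl replicate 2. In these settings 9.34% to 16.1% of all genes were called. The number of members was 6 without Ctrl replicate 1, with 5 higher and 1 lower, where 20.7% of all genes were called. It was also 2 with only the Ctrl and parental groups fitted, where 13.2% of all genes were called.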

How the data were processed

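RNA was measured in A431 parental (mutp53), Ctrl (mutp53) and p53 KO cells. According to the study's methods and processing notes, strand-specific poly(A) libraries were aligned by the authors with STAR 2.5.1b to GRCh38 and counted per gene with featureCounts on Ensembl annotation. Whether the counting used strand is not given in the sources used here. The authors deposited counts as whole numbers without normalization.

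The tools were R 4.3.3, edgeR 4.0.16 and DESeq2 1.42.0. After filterByExpr (minimum count 10) and TMM normalization, 14513 genes were fitted in a single model of all 9 libraries with 1 mean per group. Contrasts between groups used the quasi-likelihood F test of edgeR, and p-values were adjusted over all genes tested by the Benjamini-Hochberg method at a threshold of 0.05. Standard errors follow from the F statistic. Levels per length used the exon union of GENCODE 44, and gene starts came from the same annotation. It is later than the Ensembl annotation of the counts, so bases absent from the earlier one can enter a length without adding counts. The script was tested on simulated data.

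All 10 members were named, and of the other lists those genes called in any comparison (family genes) or against both controls (up to 4 per list). Members, lists and rules were chosen with earlier results of these data known. Alternatives were DESeq2, its size factors in edgeR, other filters, a replicate block, only the groups compared, a log2 fold change past 1.5, another gene length, and each library left out. Figures were drawn with matplotlib 3.10.9. No sample was left out. A check of the group labels is not reported here.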

Additional observations from a re-analysis of the deposited data

How the results depend on the processing

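No log2 fold change or summed level changed direction past its threshold under any alternative run. Without a fold threshold, ALDH18A1, ALDH3B1, ALDH3A1, ALDH1L2 and ALDH3B2 kept the calls given in the text against parental or Ctrl cells in p53 KO cells. ALDH3B2 was not tested with at least 10 counts in every library. Of 224 alternative values in p53 KO against parental cells, 224 kept their side of the threshold, and against Ctrl cells 210 did, 7 lost and 7 gained a call. In Ctrl against parental cells 204 did, 30 lost and 4 gained a call.

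Genes called in p53 KO against parental cells numbered 4831 with only those groups fitted and 283 past a log2 fold change of 1.5, and 1568 to 4944 with each library left out, the highest without Ctrl replicate 1. Against Ctrl cells they numbered 477 past 1.5 and 3100 to 5162 with each library left out. In Ctrl against parental cells they numbered 1869 with only those groups fitted, 281 past 1.5 and 1379 to 4375 with each library left out. Members called past 1.5 were 0 in p53 KO against parental cells (1.95% of all genes) and 1 against Ctrl cells (3.29%). In Ctrl against parental cells there was 1 (1.94%). With each library left out, members called numbered 2 to 2 against parental cells, where 10.6% to 33.5% of all genes were called. They numbered 2 to 5 against Ctrl cells (21.0% to 35.0%) and 2 to 6 in Ctrl against parental cells (9.34% to 29.6%). With only the groups fitted they numbered 2 in the last (13.2%). Other family genes called were 1 against parental cells with at least 10 counts in every library, where fewer genes were tested, and 2 to 4 against Ctrl cells and 2 to 4 in Ctrl against parental cells with each library left out, 4 without Ctrl replicate 2 against Ctrl cells. In Ctrl against parental cells they were 2 with only those groups fitted and 2 past 1.5. The summed level against Ctrl cells differed by 12.4 CPM per kb with the longest transcript as length, in place of 18.8. Other causes of these shifts were not tested.

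Same-numbered libraries deviated from their group means with correlations from -0.348 to 0.0409, so the numbers were not taken to pair the samples. With the replicate number as a block, the calls in Ctrl against parental cells were 1691 genes (11.7%), 2 members and 2 other family genes. Without the block, 2943 genes (20.3%), 4 members and 4 other family genes were called. Depth limits ALDH1A1, ALDH1A2 and ALDH8A1, whose counts stayed at or under 5.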
